A study of Coprinopsis cinerea with 29 samples.

Results

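Secondary hyphal knots (H) were set against vegetative mycelium (VM) of Coprinopsis cinerea, a mushroom that completes its fruiting cycle on agar, with the 3 libraries of H and the 3 of VM out of the 29 of the series, all of polyadenylated RNA. The members were chosen by the library titles, and gene models higher or lower in H were then followed through the other 7 groups. The fungus in all groups was strain #326 (A43mut B43mut pab 1-1), in which both mating-type factors are mutated so that a single strain fruits without a mate. All groups have the same culture record, with 5 days of dark growth at 37 °C on YMG/T agar before a week at 25 °C on a cycle of 12 h light and 12 h dark. The record does not tell when VM was taken, so the age, light and temperature of the culture and the stage cannot be told apart. The later groups were stage 1 primordia (P1, n = 4), stage 2 primordia (P2, n = 4), the cap (YFB_C, n = 3), lamellae (YFB_L, n = 3) and stipe (YFB_S, n = 3) of young fruiting bodies, and the cap with lamellae (FB_CL, n = 3) and the stipe (FB_S, n = 3) of fruiting bodies.

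Vegetative mycelium is the feeding form of the fungus, a loose web of branching hyphae that grows into its substrate. A hyphal knot forms where branching becomes local and intense and the branches aggregate. In a secondary knot the hyphae are packed and interwoven, and cap and stipe are laid out within the primordium that grows from it. In C. cinerea, galectins, which are sugar-binding proteins of the cell surface, are known to appear with fruiting, at the knot stage. The identifiers in the deposited files come with no gene name, product or position, so no such gene could be looked up, both labels could not be checked against marker genes, and gene models are given below by number.

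The 6 libraries held between 10736371 and 23877693 reads on gene models, within the range of all 29, and 11990 of 14242 gene models passed the filter on low counts. H carries the replicate numbers 2 to 4, and H replicate 4 was sequenced on a second flow cell while the 3 VM libraries were all on the first. Gene models were called with edgeR's quasi-likelihood test where the adjusted p was under 0.05 and the groups differed 2-fold or more. Nothing in the labels ties a replicate to a culture, so each p-value measures only the spread between these libraries. Levels that are compared between gene models are given as RPKM, which scales the reads by the length of the gene model and by the TMM-scaled size of the library.

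Hyphal knots differed from mycelium in 19.9% of the gene models tested. The number higher in H was 1314, or 11.0%, and the number lower was 1077, or 8.98%. Those called higher are named risers from here on, and those called lower are named fallers. The libraries of H and VM did not overlap in 1157 risers (9.65% of models tested) and 992 fallers (8.27%). Among all tested models, the H libraries all lay above the VM libraries in 2318 (19.3%) and all below them in 2667 (22.2%). The excess of risers over fallers depended on the scaling, since with library size alone, which moved the median of all models by -0.16 on the log2 scale, 1067 models were higher and 1206 lower.

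The repertoire of expressed genes was of similar size in knots and mycelium. The number of gene models at 1 RPKM or more averaged 10832 ± 138 in H and 10802 ± 110 in VM (SD, n = 3 each; exact two-sided permutation p = 0.9, adjusted p = 0.9 over 5 library values), and the difference of 29.7 models turned to -44.7 with library size alone. The 10 most abundant models of a library took 6.37% ± 1.34 of its reads in H and 4.73% ± 0.605 in VM (SD, n = 3 each; exact two-sided permutation p = 0.1, the smallest that 3 libraries against 3 can give, adjusted p = 0.5). The reads themselves were redistributed among gene models. Risers, chosen for this difference, took 21.1%, 31.4% and 22.6% of the reads in H replicates 2, 3 and 4, against 5.14%, 4.80% and 5.18% in VM replicates 1, 2 and 3. Fallers took 4.85%, 2.47% and 3.78% in the same H libraries, against 14.3%, 15.1% and 14.6% in VM. In bulk RNA, a change in the share of a cell type and a change in RNA per cell cannot be told apart.

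Risers came mostly from low levels in mycelium, and fallers more often from high ones. Of the 1118 tested models with a VM mean under 1 RPKM, 311 (27.8%) were risers and 19 (1.70%) were fallers. Between 1 and 10 RPKM in VM there were 457 risers and 259 fallers among 3300 models. Between 10 and 100 RPKM there were 502 risers and 594 fallers among 6395. At 100 RPKM or more the order was turned round, with 44 risers (3.74%) and 205 fallers (17.4%) among 1177. A model that is low in VM has little room to be called lower, and grouping by the VM mean uses the same libraries as the call, so these shares are a description. The median level of the risers was 31.1 RPKM in H and 6.05 RPKM in VM, and that of the fallers was 6.998 RPKM in H and 26.4 RPKM in VM.

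Most of the changed gene models moved to another of these 4 level classes. A higher class was reached by 752 risers (57.2%) and a lower class by 599 fallers (55.6%). A call needs a 2-fold change, which makes a change of class likelier, so these shares are a description. Moves across several classes were few. There were 54 risers with a mean of at least 10 RPKM in H and under 1 RPKM in VM, and 10 of them reached 100 RPKM in H. In the other direction, 11 fallers had a mean under 1 RPKM in H and at least 10 RPKM in VM, and 2 of these had been at 100 RPKM or more in VM. At the low end, 78 risers and 19 fallers stayed under 1 RPKM in both groups, so these calls concern models with few reads. In the plot of mean levels, risers spread far above the diagonal at low VM levels, and fallers lie in a narrower band below it.

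**Figure D1:**
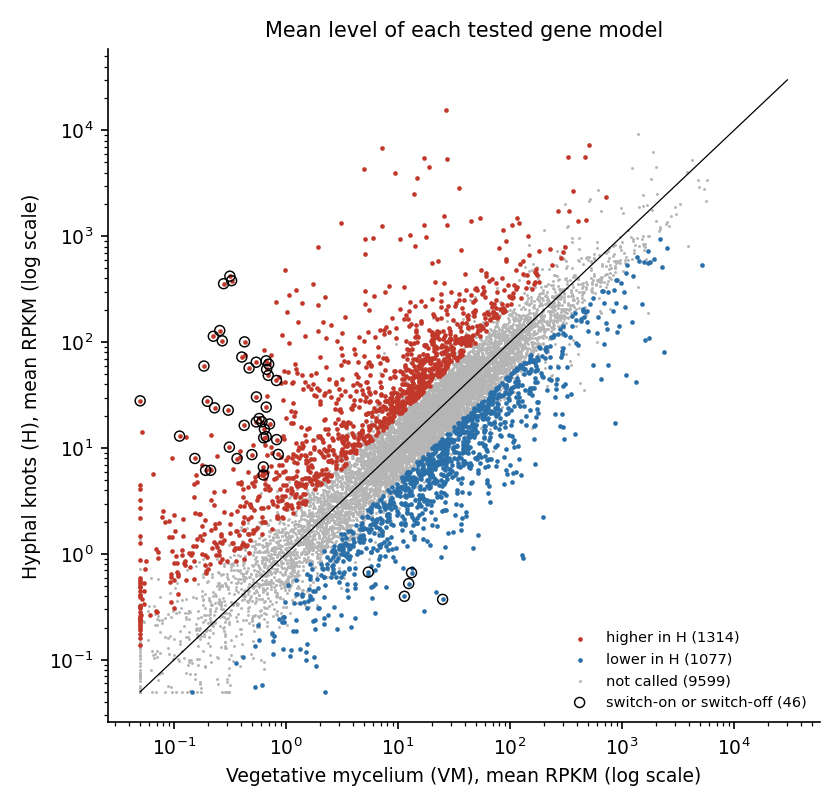
Mean RPKM in hyphal knots (vertical axis, log scale) against mean RPKM in vegetative mycelium (horizontal axis, log scale), one point per gene model tested, with 3 libraries in each mean. The 1314 models called higher in H and the 1077 called lower are coloured, means below 0.05 RPKM are drawn at the edge, rings mark switch-on and switch-off models, and the line marks equal means.

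Large folds were more frequent among risers. The median log2 change was 1.99 over the risers and -1.72 over the fallers, but 1.83 and -1.85 with library size alone and 1.46 and -1.42 with limma on log2(RPKM + 1), so which set has the larger median depended on the scaling. Changes of 2- to 4-fold made up 662 risers and 673 fallers, and 317 risers and 266 fallers lay between 4- and 8-fold. Above that the numbers parted, with 149 risers and 94 fallers between 8- and 16-fold, 121 and 39 between 16- and 64-fold, and 65 and 5 at 64-fold or more. At 4-fold or more there were 652 risers and 404 fallers, together 8.81% of the models tested. A fold change of a model with few reads in one group depends on the prior count of the fit, so the top class holds estimates and not bounds. The plot of fold sizes shows nearly equal bars in the first class and a growing gap in the classes to its right.

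**Figure D2:**
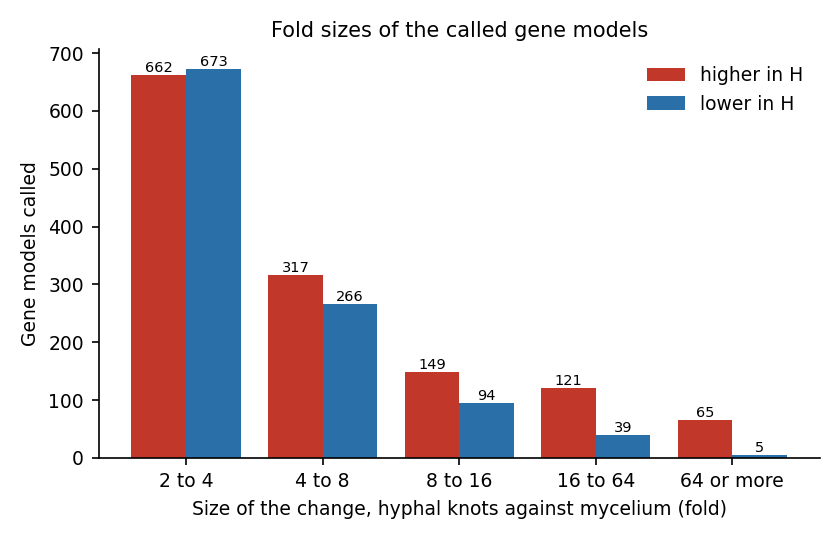
Number of gene models called (vertical axis) by size of the change in hyphal knots against vegetative mycelium (horizontal axis, fold classes), with models higher in H beside those lower in H. The bars start at 0 and show 662 against 673 models at 2- to 4-fold and 65 against 5 at 64-fold or more.

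The most abundant transcripts differed in part between H and VM. Of the 100 gene models with the highest mean RPKM in H and the 100 with the highest in VM, 47 were on both lists, which is 47% of each. Among the 100 of H, 38 were risers and 1 was a faller. Among the 100 of VM, 0 were risers and 29 were fallers. Of all models tested, 11.0% were risers and 8.98% were fallers. How far such lists differ between libraries of 1 group was not counted. The lists of the first 10 had 1 gene model in common, and 7 of the 10 in H were risers. The ranking uses the same values as the call, so these counts describe the members and are no test.

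A model was counted as switched on where it was a riser, under 1 RPKM in every VM library and at 5 RPKM or more in every H library. There were 41 such models, 0.342% of those tested. Their mean levels in H ran from 5.59 to 420 RPKM with a median of 24.0 RPKM, and in VM from 0 to 0.854 RPKM with a median of 0.469 RPKM. Their summed reads made up 0.235%, 0.523% and 0.405% of H replicates 2, 3 and 4, against 0.00353%, 0.00236% and 0.00267% of VM replicates 1, 2 and 3. Their median log2 change was 5.75, against 1.99 over all risers. The threshold decides the number, which was 24 with 10 RPKM as the lower limit in H, 14 with 0.5 RPKM as the upper limit in VM, and 92 on group means.

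Switching off was rarer. By the mirrored rule, 5 fallers (0.0417% of models tested) were under 1 RPKM in every H library and at 5 RPKM or more in every VM library. Their mean levels in H lay between 0.373 and 0.675 RPKM, and in VM between 5.44 and 25.1 RPKM. The count was 13 without VM replicate 2, 10 without H replicate 2 and 9 without H replicate 4. It was 27 on group means, so most of the models that met the limits on group means had at least 1 library past one of them.

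Gene model 477343, of 1575 bases, stood for the switch-on models, as the one with the widest gap between the groups among those at 10 RPKM or more in H. It had 127, 390 and 554 RPKM in H replicates 2, 3 and 4, against 0.444, 0.0668 and 0.322 RPKM in VM replicates 1, 2 and 3. The lowest H library was thus far above the highest VM library, which rested on 20 reads. On the log2 scale H exceeded VM by 10.33 ± 0.84 (SE; edgeR adjusted p = 4.00e-09), or by 10.96 without VM replicate 1.

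Gene model 368220, of 453 bases, had the widest gap among risers at 10 RPKM or more in all 6 libraries. Its levels were 8420, 28957 and 9659 RPKM in H replicates 2, 3 and 4, against 44.1, 14.6 and 21.7 RPKM in VM replicates 1, 2 and 3. H replicate 3 was about 3 times as high as the other H libraries, and all 3 were far above VM. On the log2 scale the difference was 9.19 ± 0.81 (SE; edgeR adjusted p = 1.35e-08), and 8.37 without H replicate 3.

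Gene model 443496, of 1542 bases, stood for the switch-off models. It had 0.451, 0.218 and 0.527 RPKM in the H libraries, against 13.8, 10.2 and 10.3 RPKM in the VM libraries. The H values rest on 15, 8 and 21 reads and the VM values on 608, 449 and 250 reads. H minus VM on the log2 scale was -4.83 ± 0.76 (SE; edgeR adjusted p = 6.18e-05).

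Gene model 496607, of 774 bases, had the widest gap among fallers present in every library. It had 99.7, 96.7 and 118 RPKM in the H libraries, against 1708, 1813 and 1265 RPKM in the VM libraries. Both groups were tight and did not overlap. The log2 difference was -3.93 ± 0.83 (SE; edgeR adjusted p = 0.00125).

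**Figure D3:**
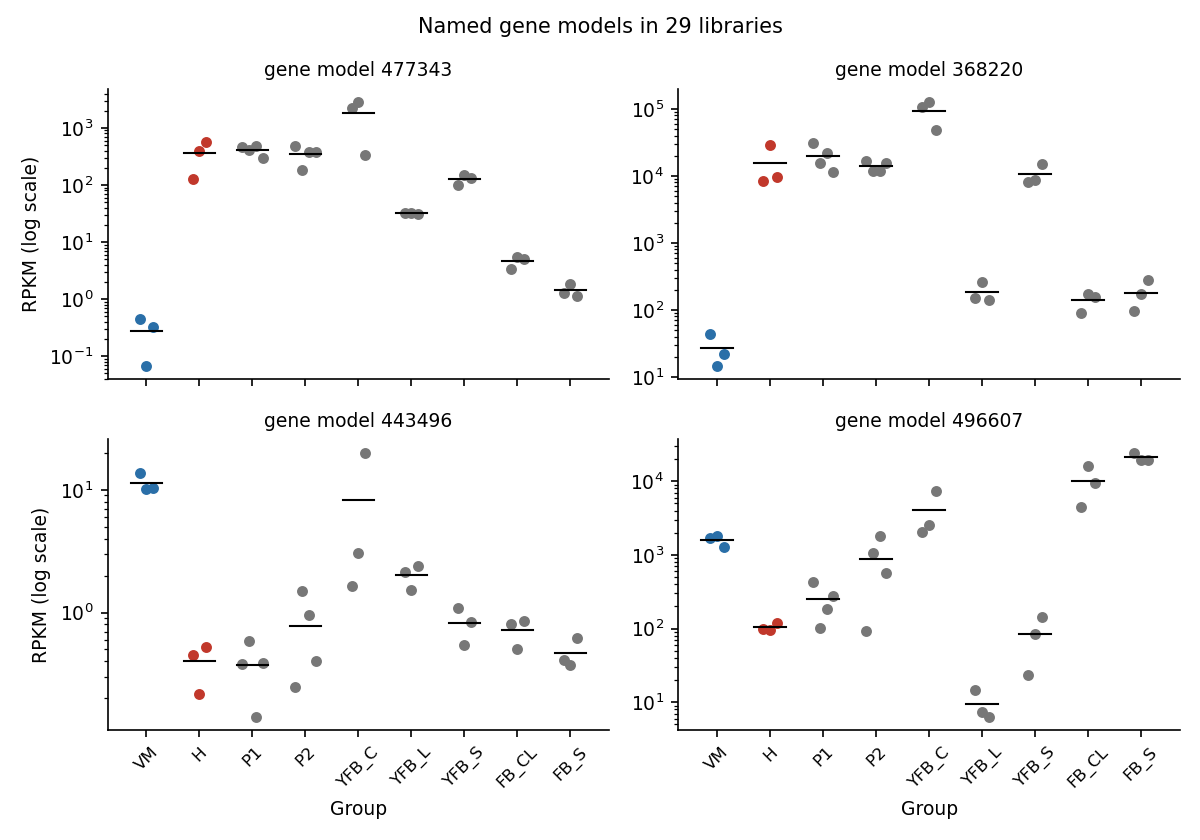
RPKM (vertical axis, log scale) of gene models 477343, 368220, 443496 and 496607 in the 29 libraries by group in order of development, with one point per library and a bar at the group mean. The H points lie above all VM points in the 2 upper panels and below them in the 2 lower ones, and the young cap is the highest group for both risers.

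The median spread was larger among these hyphal knot libraries than among those of mycelium. The median over all tested models of the SD of log2 CPM was 0.416 in H and 0.273 in VM (n = 3 libraries each). It was 0.636 in H and 0.339 in VM over the risers, and 0.511 in H and 0.403 in VM over the fallers. Across gene models, which are not independent replicates, log2 CPM correlated at 0.924 to 0.958 between H libraries and at 0.952 to 0.990 between VM libraries. The 0.990 was that of VM replicates 1 and 3, while VM replicate 2 stood at 0.957 and 0.952 to them. H replicates 2 and 3 stood at 0.958, near those 2 values. The pairs with H replicate 4, from the second flow cell, stood at 0.943 and 0.924. A part of the flow cell in this was not tested. H replicate 3 was the farthest from VM, at 0.826 to 0.838, and H replicate 2 the closest, at 0.886 to 0.900.

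H replicate 3 lay at the far end of the change in most members. It was the highest H library in 732 risers (55.7%), against 190 for replicate 2 and 392 for replicate 4, while over all tested models it was the highest in 33.1%. It was the lowest in 647 fallers (60.1%), against 76 for replicate 2 and 353 for replicate 4. The median distance from the VM mean over risers was 1.71, 2.18 and 1.67 on the log2 scale in H replicates 2, 3 and 4, and over fallers it was -1.35, -2.01 and -1.73. All 3 libraries were thus on the same side of VM in both sets, which the choice of the members fixes. At least 80% of the summed H CPM came from replicate 3 in 16 risers (1.22%), beside 0.550% of all models. It came from replicate 4 in 7 risers and from replicate 2 in 2. A smaller share can still decide a call, so dependence on a library is read from leaving it out.

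Without H replicate 3 the comparison called 1638 gene models, 907 higher and 731 lower. Of the risers 895 kept their call, 419 lost it and 12 were gained, and of the fallers 661 kept it, 416 lost it and 70 were gained. The direction changed in 3 risers and in 0 fallers. Of the risers that lost the call, 183 were under 2-fold without that library, and the rest missed the adjusted p with 2 H libraries left. The lost risers had a median log2 change of 1.46 with H replicate 3 and 1.08 without it, and the kept ones 2.36 with it and 2.18 without it. Under each of the other 5 omissions, 96 of the 419 lost risers were called.

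No other H or VM library lowered the total number of calls as far. Without H replicate 2 there were 1350 higher and 1200 lower, and without H replicate 4 there were 1381 higher and 891 lower. The 3 VM libraries, left out in turn, gave 1068 to 1108 higher and 853 to 943 lower. A call in all 6 fits with a library left out was had by 745 risers (56.7%) and 502 fallers (46.6%), and by 41 of the 41 switch-on and 4 of the 5 switch-off models. With H replicate 3 left out, the rule for switching on, applied afresh, gave 37 models and that for switching off 5.

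Most switch-on models stayed at 5 RPKM or more in the primordia. They were chosen for that level in every H library, while many of all models tested were not at it in H. The shares beside all models are thus a description and no test. Of the 41 switch-on models, 37 (90.2%) were at 5 RPKM or more in every P1 library and 35 (85.4%) in every P2 library, beside 67.6% and 68.1% of all models tested. The number was 27 (65.9%) in YFB_C, 19 (46.3%) in YFB_L and 29 (70.7%) in YFB_S, beside 61.7%, 64.4% and 62.4% of all. In both FB_CL and FB_S it was 19 (46.3%), beside 63.5% and 63.1% of all. Models back under 1 RPKM in every library numbered 0 in P1 and P2, beside 7.66% and 7.02% of all models. They numbered 2 (4.88%) in YFB_C, 5 (12.2%) in YFB_L and 1 (2.44%) in YFB_S, beside 8.84%, 7.86% and 9.70% of all. In FB_CL they numbered 8 (19.5%) and in FB_S 9 (22.0%), beside 10.3% and 10.4% of all. Where the rule was applied without H replicate 4, these numbers were 3 in P1, 1 in P2, 4 in YFB_C and 4 in YFB_S, and without H replicate 2 they were 4 in YFB_C and 3 in YFB_S. Among the switch-on models found without YFB_S replicate 3, the number in YFB_S was 2. Of the 41 models, 6 were at 5 RPKM or more throughout all 7 later groups, beside 5436 of all 11990, and 40 were so in at least 1 of them, beside 9896. The highest group mean was in YFB_C for 15 (36.6%), in YFB_S for 7 (17.1%), in P1 for 6 (14.6%) and in H for 2 (4.88%), beside 12.0%, 13.5%, 3.81% and 5.80% of all models. The median of their means was 24.0 RPKM in H, 52.4 in P1, 49.9 in P2, 33.7 in YFB_C, 7.03 in YFB_L, 28.6 in YFB_S, 6.33 in FB_CL and 5.53 in FB_S. Scaling by library size alone gave 27 switch-on models, 22 of them among the 41, and of these 27 there were 24 on in P1, 15 in YFB_C and 9 in both FB_CL and FB_S.

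**Figure D4:**
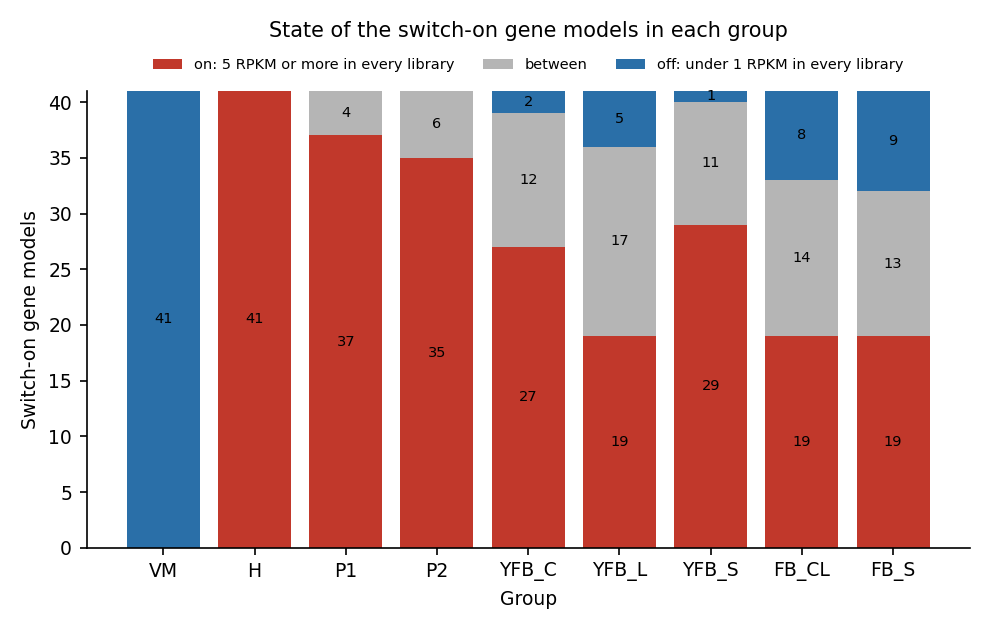
State of the 41 switch-on gene models (vertical axis, number of models) in each group in order of development (horizontal axis), as on (5 RPKM or more in every library), off (under 1 RPKM in every library) or between. VM and H are fixed by the rule, 37 are on in P1, and 19 are on and 9 are off in FB_S.

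Switch-off models stayed low in most later groups. They were chosen for under 1 RPKM in every H library, so their counts beside all models are likewise a description. In each of P1, P2 and YFB_S, 4 of the 5 were under 1 RPKM in every library, in YFB_C and FB_S 3 were, in FB_CL 2 were, and in YFB_L 1 was. Of all models tested, between 7.02% (P2) and 10.4% (FB_S) were so in a later group. At 5 RPKM or more in every library were 2 of the 5 in FB_CL and 1 in FB_S, beside 63.5% and 63.1% of all models. One of these averaged 2689 ± 116 RPKM in FB_CL, with 23.7 RPKM in FB_S, against 0.675 RPKM in H and 5.44 RPKM in VM, and the other 473 ± 46.8 RPKM in FB_CL, against 0.527 RPKM in H and 12.5 RPKM in VM (SD, n = 3). These 2 were picked out after their values were seen.

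Over the whole sets, the median RPKM of risers was 6.05 in VM, 31.1 in H, 26.4 in P1, 24.4 in P2, 35.9 in YFB_C, 15.1 in YFB_L, 23.6 in YFB_S, 17.1 in FB_CL and 15.6 in FB_S. For fallers it was 26.4 in VM, 6.998 in H, 5.28 in P1, 6.88 in P2, 4.92 in YFB_C, 6.04 in YFB_L, 4.19 in YFB_S, 5.82 in FB_CL and 4.70 in FB_S. The size of the step between VM and H is set by the choice of the members. Behind these medians single models went many ways. Risers had their highest group mean in YFB_C in 295 cases (22.5%), in H in 197 (15.0%) and in YFB_S in 193 (14.7%), beside 12.0%, 5.80% and 13.5% of all models tested. Fallers had it in VM in 644 cases (59.8%) and in FB_CL in 141 (13.1%), beside 16.4% and 15.98% of all models. The choice of the members favours H for risers and VM for fallers, so these shares are no test.

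**Figure D5:**
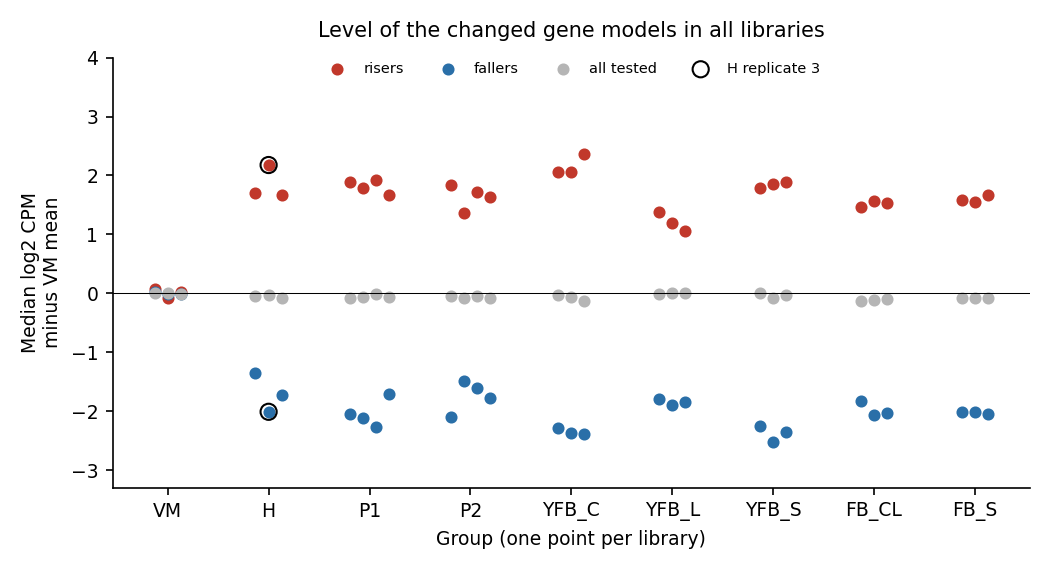
Median over risers, fallers and all tested gene models of log2 CPM minus the VM mean (vertical axis, log2 scale) in each library, by group in order of development (horizontal axis), with H replicate 3 ringed. Risers lie between 1.67 and 2.18 in the H libraries and fallers between -2.01 and -1.35, with H replicate 3 at the outer end of both.

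The comparisons of later groups with VM share the VM libraries that chose the members and stand here side by side, as no support. In P1, 960 of the 1314 risers were again called higher than VM and 951 of the 1077 fallers lower, beside 12.6% and 17.0% of all models. The numbers were 882 and 839 in P2 (11.2% and 14.1% of all), 921 and 790 in YFB_C (25.4% and 27.3%), 719 and 686 in YFB_L (22.8% and 21.3%), and 844 and 809 in YFB_S (24.3% and 27.3%). They were 747 and 705 in FB_CL (26.9% and 29.6%) and 770 and 762 in FB_S (25.9% and 29.5%). Under library size alone, 422 risers were higher and 380 lower than VM in FB_CL, and 505 higher and 285 lower in FB_S, beside 10.5% and 62.1% of all models in FB_CL and 11.3% and 53.4% in FB_S, with the median of all models shifted by -1.72 and -1.26 on the log2 scale. Against H, which shares the H libraries, 51 risers were higher and 129 lower in P1 (1.01% and 4.13% of all models). Without H replicate 3, which also reduces the risers to 907, 35 were higher and 37 lower, beside 0.579% and 1.71% of all models. The excess of lower calls among risers was thus nearly absent without that library, while over all models lower calls remained more frequent.

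Steps between later groups use no H or VM library and test what became of the members afterwards. Between P1 and P2, 0 risers and 0 fallers were called by edgeR (0.00% of all models), with 26 risers and 80 fallers at an unadjusted p under 0.05, beside 212 of all 11990 models. DESeq2 and limma on log2(RPKM + 1) also called 0 of each, and DESeq2 called 1 model among all tested.

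In the young cap against P2, 512 risers (39.0%) were called higher and 238 (18.1%) lower, beside 22.0% and 20.7% of all models. Of the fallers, 197 (18.3%) were higher and 352 (32.7%) lower. Scaled by library size alone, where the median of all models shifted by -0.89, 240 risers were higher and 416 lower, beside 8.50% and 43.6% of all models, and 92 fallers were higher and 619 lower. In YFB_L against P2, 235 risers (17.9%) were higher and 422 (32.1%) lower, beside 18.5% and 16% of all models, and 243 fallers were higher and 278 lower. Library size alone (median shift -0.14) gave 184 risers higher and 493 lower and 188 fallers higher and 326 lower, beside 13.4% and 20.1% of all models. In YFB_S against P2, 339 risers (25.8%) were higher and 293 (22.3%) lower, beside 17.8% and 21.1% of all, and 162 fallers (15.0%) were higher and 407 (37.8%) lower. With library size alone (median shift -0.50) these became 208 and 427 for risers and 99 and 527 for fallers, beside 9.64% and 32.1% of all models. These 3 comparisons share the P2 libraries.

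Between the young cap and the mature cap with lamellae, risers were called lower, and fallers higher, at larger shares than all models. This held with TMM and with library size alone. Since YFB_C holds no lamellae, maturation and the added tissue cannot be told apart here. In FB_CL against YFB_C, 213 risers (16.2%) were higher and 534 (40.6%) lower, beside 23.1% and 25.0% of all models, while 314 fallers (29.2%) were higher and 215 (20.0%) lower. With library size alone (median shift -0.78) 134 risers were higher and 719 (54.7%) lower, and 219 fallers (20.3%) higher and 331 lower, beside 13.9% and 40.6% of all models. Against the young lamellae, which FB_CL also contains, 446 risers (33.9%) were higher and 369 (28.1%) lower in FB_CL, beside 24.6% and 29.0% of all models, and 286 fallers were higher and 301 lower. Under that scaling (median shift -1.47) these became 237 and 638 for risers and 142 and 560 for fallers, beside 10.9% and 57.6% of all models. In the stipe, FB_S against YFB_S, 331 risers (25.2%) were higher and 456 (34.7%) lower, beside 23.1% and 23.5% of all, and 287 fallers (26.6%) were higher and 209 (19.4%) lower. Here library size alone (median shift -0.67) gave 228 and 606 for risers and 185 and 328 for fallers, beside 13.9% and 37.6% of all models.

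Nearly every member, like most of all models tested, was called in some later step. Over the 7 steps, 987 risers (75.1%) were called higher at least once and 983 (74.8%) lower at least once, beside 64.7% and 65.2% of all models. Both directions occurred in 700 risers (53.3%), beside 40.1% of all models, and 44 (3.35%) were called in no step, beside 10.3% of all. Of the fallers, 739 were called higher at least once, 830 lower, 552 in both directions and 60 (5.57%) in neither. Without H replicate 3 there were 907 risers. In the young cap against P2, 40.2% of them were called higher and 19.6% lower, beside 21.6% and 20.9% of all models. In FB_CL against YFB_C, 13.9% were higher and 48.3% lower, beside 21.3% and 27.5% of all models.

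Gene model 477343 was highest in YFB_C at 1793 ± 1293 RPKM, where replicate 3 had 340 RPKM and replicates 1 and 2 had 2221 and 2818 RPKM. It followed at 410 ± 78.0 in P1 (n = 4), 357 ± 216 in H, 352 ± 125 in P2 (n = 4), 127 ± 25.9 in YFB_S, 31.8 ± 1.01 in YFB_L, 4.59 ± 1.04 in FB_CL, 1.42 ± 0.376 in FB_S and 0.278 ± 0.193 in VM (SD, n = 3 unless given). The ranges of YFB_C, P1, H and P2 overlapped, YFB_S overlapped H and not P2, and each group from YFB_L down lay apart from its neighbours. FB_CL minus YFB_C was -8.61 ± 0.77 in log2 units (SE; edgeR adjusted p = 2.57e-09).

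Gene model 368220 had the same order at its upper end. It averaged 93394 ± 40451 RPKM in YFB_C, 20009 ± 8518 in P1 (n = 4), 15679 ± 11516 in H, 14085 ± 2556 in P2 (n = 4) and 10565 ± 3911 in YFB_S (SD, n = 3 unless given). The 4 groups below YFB_C overlapped in their ranges. Lower levels were had by the other groups, with 185 ± 67.1 in YFB_L, 181 ± 91.5 in FB_S and 141 ± 44.2 in FB_CL, which also overlapped, and the lowest was that of VM at 26.8 ± 15.4 RPKM. YFB_L minus P2 in log2 units was -6.25 ± 0.70 (SE; edgeR adjusted p = 1.90e-07).

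Gene model 443496 stayed low outside mycelium in most libraries. It averaged 11.4 ± 2.05 RPKM in VM, 8.29 ± 10.3 in YFB_C and 2.03 ± 0.452 in YFB_L, and between 0.373 and 0.828 RPKM in the other 6 groups, H among them. The YFB_C mean came from replicate 3 at 20.1 RPKM, with 1.66 and 3.09 RPKM in replicates 1 and 2. YFB_C against P2 gave a log2 change of 3.396 (edgeR adjusted p = 9.13e-05), and 1.58 without that library (edgeR adjusted p = 0.0150).

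Gene model 496607 was at its highest in the mature stipe. It was found in FB_S at 21128 ± 2872 RPKM, followed by FB_CL at 9987 ± 5754, YFB_C at 4004 ± 3007, VM at 1596 ± 291, P2 at 876 ± 730 (n = 4), P1 at 249 ± 142 (n = 4), H at 105 ± 11.5, YFB_S at 83.5 ± 59.5 and YFB_L at 9.48 ± 4.52 (SD, n = 3 unless given). FB_S and YFB_L lay apart from their neighbours, and between them FB_CL and YFB_C, VM and P2, P2 and P1, P1 and H, and H and YFB_S overlapped. FB_S exceeded YFB_S on the log2 scale by 7.98 ± 1.00 (SE; edgeR adjusted p = 4.53e-07), or by 8.61 without YFB_S replicate 3.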

How the data were processed

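RNA was sequenced from TruSeq v2 libraries, per the labels' protocols, a kit that does not mark strand. The deposited files hold total and unique read counts per gene model laid out as CLC RNA-Seq exports, per the file headers. The version of the mapper and the genome build: not given in the sources used here. Lengths of the gene models in bases come from the same deposited files. A deposited table of log2 RPKM for part of the models was used for limma only, and R 3.0.2, edgeR 3.4.2 and limma 3.18.13 appear in the submitters' processing notes. Of the 14242 identifiers 0 matched a reference table of 13657 genes from another strain.

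Total counts were analysed in R 4.3.3 with edgeR 4.0.16. The filter filterByExpr kept 11990 models and set aside 2252, scaling was by TMM, and all 29 libraries entered 1 quasi-likelihood fit with 9 group coefficients. Calls needed a Benjamini-Hochberg adjusted p under 0.05 over all models tested and at least 2-fold. The SE is the size of the log2 change over the square root of F and is approximate. Log2 CPM used a prior count of 2. Reads unique to 1 model made up 99.7% to 99.9%. Totals ran from 10736371 to 32199674 reads per library, so a level of a few reads has a wide counting error. No 2 libraries of H or of VM were copies, since chi-square over its degrees of freedom was 24.4 or more. The 24.4 was that of VM replicates 1 and 3, and the other pairs lay between 196 and 438. These values cannot tell whether the closest pair shares a culture.

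Named models were, in each of 4 classes (called higher or lower, and off or present in the lower group), the one with the largest ratio of the closest libraries after adding 0.1 CPM, with at least 10 RPKM where present. Alternatives were DESeq2 1.42.0, limma 3.58.1 on log2(RPKM + 1) or log2(RPKM + 0.1), other scalings, filters, thresholds, covariates and libraries left out. The members and lists were chosen with earlier results of these data known. The tests were run on simulated counts first. No sequences were printed, since the files hold none.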

Additional observations from a re-analysis of the deposited data

Results flagged for a closer look

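Values per library were screened in P1 and P2, the groups of 4, for a lowest or highest library whose gap to its neighbour exceeded 0.829 of the group's range, which chance gives in about 1 of 20 groups. Of 26 values screened 2 passed. P1 replicate 3 had a median of 0.142 RPKM over the 5 switch-off models, with the other P1 libraries up to 0.388 RPKM. P2 replicate 4, from the second flow cell, held 16452597 reads, the fewest of P2, where the most was 23501482.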

How the results depend on the processing

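At 4-fold, 1056 models were called, 652 higher and 404 lower, and the risers then called in a later step were 378 higher and 454 lower, the fallers 217 and 270. Limits of 0.5 and 5 RPKM gave 14 switch-on and 0 switch-off models (no test of their own), 1 and 10 RPKM gave 24 and 3, and group means 92 and 27. Library size alone gave 27 switch-on models, with 606 of its 1067 risers called higher in a later step. The H and VM libraries alone called 1016 higher and 780 lower, with 27 switch-on models, and can give no later step. The first flow cell alone gave 9 switch-off models. Leaving out 1 library in turn gave 1638 to 2712 calls, 907 to 1469 higher and 731 to 1243 lower, with 37 to 51 switch-on and 4 to 13 switch-off models. In the later steps it gave 667 to 1125 risers higher and 728 to 1119 lower, and 485 to 868 fallers higher and 548 to 968 lower. Risers and fallers were called afresh in each of these settings, so the later-step counts move with the size of the sets. Such counts over all models were not made in these settings, so they do not show whether the later fate depends on the setting. Leaving out libraries of the 7 later groups was chosen after seeing the data, as was omitting both YFB_C replicate 3 and YFB_L replicate 1, which gave 2884 calls for H against VM. DESeq2 called 1470 higher and 1180 lower, and limma on log2(RPKM + 1) 1015 and 1021. The replicate number as a block gave 2330 calls, 1267 higher and 1063 lower, with 41 switch-on and 5 switch-off models. H and VM share only the numbers 2 and 3, whose deviations correlated at 0.0844 and -0.0578, beside -0.143 to 0.12 for pairs of unlike number. With 3 libraries a group, these values cannot tell whether libraries of the same number share a culture. No log2 change of a named model for H against VM changed direction. Library size alone turned the excess of risers over fallers to 1067 against 1206. For the 1314 risers of the main fit it gave 240 (18.3%) higher and 416 (31.7%) lower in YFB_C against P2. Beside these stood 8.50% and 43.6% of all models, so risers were still higher more often, and lower less often, than all models. The cause was not tested. Models near 1 RPKM rest on few reads, which limits both switch counts.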
